A study of Mus musculus with 6 samples.

Results

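The genes described here encode the ATR checkpoint and the proteins that build, drive and rescue replication forks. They were taken from a fixed list of 47 mouse genes, among 21887 protein-coding genes of the RefSeq table, and sorted by role into ATR checkpoint (15 genes), single-strand binding (3), helicase and its loading (14), polymerase (7), fork remodelling (3) and nucleases (5). What was measured at them is the gathering of DNA ends, as breaks leave them. BrITL adds a biotinylated nucleotide to DNA ends in permeabilised cells, and the tagged fragments are captured on streptavidin beads and sequenced. A gene was counted when the summit of a peak, its point of highest pull-down coverage, lay in the gene body or within 1 kb of either end.

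The cells were mouse embryonic fibroblasts that had become immortal through passaging, carried an ATR+/- genotype and expressed Bcl-xL, a protein that blocks apoptosis. Both conditions shared all of this, so no cells with 2 working copies of Atr were compared, and any dependence on the missing copy or on Bcl-xL was not tested. Cells were kept for 18 h in DMSO, the solvent control, or for 18 h in 1 µM ATR-45, an ATR inhibitor, with 0.2 µM aphidicolin, which inhibits replicative DNA polymerases (called treated below). The agents were given together, so their effects cannot be told apart. Of 6 samples, each condition supplied 2 pull-downs and 1 input, but the deposited peak lists pool the pull-downs of a condition. No value below has a replicate error, and no test between conditions was possible. Peaks carry no expression values, so the fibroblast identity of the cells could not be checked against marker genes.

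As background, ATR is a kinase that is called to single-stranded DNA coated by replication protein A (RPA), which gathers where forks slow. Its partner ATRIP binds that RPA, the activators TOPBP1 and ETAA1 switch the kinase on, and the RAD9-RAD1-HUS1 clamp, loaded by RAD17, brings TOPBP1 in. ATR then phosphorylates the kinase CHK1 (gene Chek1) through the adaptor claspin, which holds back late origins and mitosis and protects stalled forks. The fork itself is driven by the CMG helicase, made of CDC45, the ring of MCM proteins and the GINS complex. Many of these genes peak in expression around S phase, and E2F factors and CCAAT-binding factors are known to act at their promoters.

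The sequences of 7 genes are shown first as examples, picked by whether the genes had a peak. Mcm7 and Pcna had a peak in both lists, the genes of the 3 RPA subunits all had a DMSO peak, and the kinase genes Atr and Chek1 had none. Each is the 250 bases just upstream of a start listed by RefSeq on GRCm38.p6, the assembly called mm10 in the submitters' notes, written 5′ to 3′ on the gene's own strand and ending at the base before the start. Capitals mark matches, on either strand, to the CCAAT box (CCAAT), the Sp1 GC box (GGGCGG), the short E2F site (GCGGGAA) and the NRF1 core (GCATGCGC). The coordinates are chr5:138171267-138171516 (minus strand) for Mcm7, chr2:132253181-132253430 (minus) for Pcna, chr11:75348384-75348633 (minus) for Rpa1, chr4:132768110-132768359 (plus) for Rpa2, chr6:8259142-8259391 (minus) for Rpa3, chr9:95857347-95857596 (plus) for Atr and chr9:36726659-36726908 (minus) for Chek1.
Mcm7: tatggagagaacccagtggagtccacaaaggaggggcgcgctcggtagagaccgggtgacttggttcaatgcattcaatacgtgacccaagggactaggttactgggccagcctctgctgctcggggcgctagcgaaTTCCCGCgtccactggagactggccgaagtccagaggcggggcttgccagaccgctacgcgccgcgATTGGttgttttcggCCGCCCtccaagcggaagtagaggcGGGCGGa
Pcna: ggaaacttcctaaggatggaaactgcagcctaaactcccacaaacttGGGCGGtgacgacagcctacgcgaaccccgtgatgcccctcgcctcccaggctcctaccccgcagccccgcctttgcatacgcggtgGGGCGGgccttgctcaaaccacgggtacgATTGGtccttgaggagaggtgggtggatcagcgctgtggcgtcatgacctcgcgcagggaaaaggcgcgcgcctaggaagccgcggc
Rpa1: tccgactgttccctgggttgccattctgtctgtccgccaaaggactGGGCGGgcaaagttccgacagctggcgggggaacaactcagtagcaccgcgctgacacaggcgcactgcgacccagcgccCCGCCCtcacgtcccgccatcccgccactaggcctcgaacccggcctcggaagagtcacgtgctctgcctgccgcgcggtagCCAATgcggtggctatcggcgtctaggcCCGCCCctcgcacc
Rpa2: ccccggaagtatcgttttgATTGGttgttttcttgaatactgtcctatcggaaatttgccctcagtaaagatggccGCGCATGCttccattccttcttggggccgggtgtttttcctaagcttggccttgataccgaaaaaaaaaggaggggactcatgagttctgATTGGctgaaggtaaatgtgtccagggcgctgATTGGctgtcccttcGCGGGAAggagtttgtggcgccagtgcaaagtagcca
Rpa3: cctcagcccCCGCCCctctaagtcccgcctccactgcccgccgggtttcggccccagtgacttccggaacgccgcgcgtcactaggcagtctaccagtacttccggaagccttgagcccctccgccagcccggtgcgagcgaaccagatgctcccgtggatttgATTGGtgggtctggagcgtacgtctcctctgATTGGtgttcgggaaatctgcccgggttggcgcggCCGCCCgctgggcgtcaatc
Atr: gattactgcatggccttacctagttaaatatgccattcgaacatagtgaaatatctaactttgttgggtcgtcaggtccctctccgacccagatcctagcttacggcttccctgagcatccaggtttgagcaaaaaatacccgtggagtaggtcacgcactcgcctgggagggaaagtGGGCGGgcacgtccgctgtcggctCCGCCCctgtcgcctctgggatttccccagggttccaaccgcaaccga
Chek1: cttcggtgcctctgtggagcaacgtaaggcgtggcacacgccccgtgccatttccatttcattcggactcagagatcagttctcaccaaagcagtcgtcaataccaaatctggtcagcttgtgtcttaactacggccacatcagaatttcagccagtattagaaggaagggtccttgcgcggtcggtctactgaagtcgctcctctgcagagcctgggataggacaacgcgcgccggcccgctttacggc

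These 7 are examples and not a tally: the CCAAT box is in 5 of them and not in the stretches shown for Atr and Chek1, but over all starts it was also in 12 of 26 without a DMSO summit, such as those of Clspn and Plk1, and it was missing at Rad17, Cdc6, Cdt1 and Mus81, which had one. In Pcna its first base lies at position -87, and the summits of the 2 peaks there lie at -90 (DMSO) and -77 (treated). In Mcm7 the CCAAT box is at -47 and the short E2F site at -113, while the summits lie further upstream, at -307 and -270. This layout is for the start shown. From the other listed start of Mcm7 the same summits lie 310 and 347 bp downstream. The bases upstream of that start also hold a CCAAT box and E2F sites. Rpa2 has 3 CCAAT boxes, at -231, -84 and -52, and its DMSO summit lies 66 bp downstream of the start. Chek1 has no match to any motif searched. A match is a run of letters, not a bound site, and no match says nothing about a factor.

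The lists differ in strictness, which bears on every count below. The DMSO list held 6444 peaks with −log10 q of at least 18.5, and the treated list 491 peaks with −log10 q of at least 3.38. In both lists the lowest count at a summit was 35 pull-down fragments. That was 12.2 times the pull-down background of the DMSO list (2.88 fragments) but 6.81 times that of the treated list (5.14 fragments). A gene without a treated peak is therefore not shown to have lost breaks, and fold enrichments are not set against each other across lists. Folds, −log10 q values and peak bounds are the authors' own, and fragment numbers were recovered from them.

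In DMSO-treated cells 26 of the 47 ATR and fork genes had a summit (55.3%, exact binomial interval 40.1 to 69.8%, counting error only), against 23.8% of all protein-coding genes. The 26 summits were distinct, so no peak was counted for more than 1 of these genes. In treated cells 2 of 47 had one (4.26%, interval 0.520 to 14.5%), against 1.16% of all protein-coding genes. These 2 were Mcm7, a subunit of the helicase ring, and Pcna, the sliding clamp of DNA polymerases. The genes were chosen with earlier results of these data known, so the intervals are no test against the shares of all protein-coding genes. The median gene length was 18.1 kb for the 47 genes and 17.2 kb for all protein-coding genes. Among genes with a DMSO summit it was 16.7 kb and 25.1 kb. Of the listed starts of the ATR and fork genes 61.2% were rich in CpG (defined below), against 33.9% of all starts. The part of length or sequence in the counts was not tested.

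The width of the window moved these counts mainly between body and ends. With gene bodies alone 12 of the 47 genes had a DMSO summit (25.5%), against 13.2% of all protein-coding genes. With 5 kb or 10 kb on each side the same 26 genes had one, while the share of all protein-coding genes rose to 26.6% and 29.9%. In the treated list Mcm7 alone had a summit in its body (2.13%, against 0.758%), and Mcm7 and Pcna did with 5 kb or 10 kb on each side, against 1.4% and 1.78%.

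**Figure D1:**
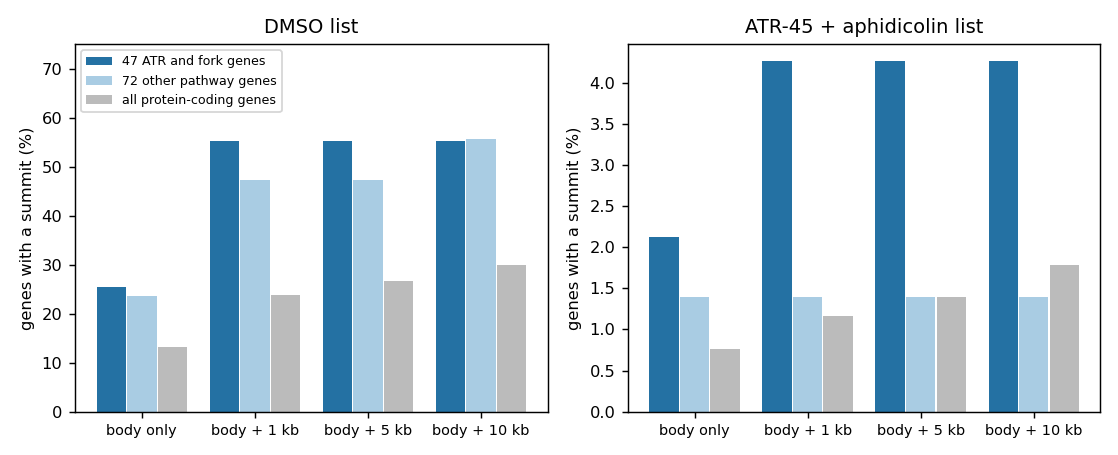
Share of genes (%, y axis) with a peak summit in windows of growing width (x axis), for the 47 ATR and fork genes, 72 other genes of the same pathways and all protein-coding genes, in the DMSO list (left) and the treated list (right; its own scale). At body plus 1 kb the DMSO bars stand at 55.3%, 47.2% and 23.8%, and the treated bars, which rest on 2 genes and 1 gene, at 4.26%, 1.39% and 1.16%.

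The counts were then split by role, beside the 23.8% of all protein-coding genes. A DMSO summit lay at 5 of 15 ATR checkpoint genes (33.3%), 3 of 3 single-strand binding genes, 11 of 14 helicase and loading genes (78.6%), 2 of 7 polymerase genes (28.6%), 2 of 3 fork remodelling genes (66.7%) and 3 of 5 nuclease genes (60%). The shares of the checkpoint and polymerase genes are near that of all protein-coding genes. These are counts of few genes, and differences between roles were not tested. The roles are broad: the nuclease group includes the scaffold gene Slx4 and the ubiquitin ligase gene Rnf4. The checkpoint group includes the mitotic kinase genes Aurka and Plk1. The polymerase group includes the sliding clamp gene Pcna, the clamp loader gene Rfc1 and the ligase gene Lig1. For the 72 other genes of the pathways the counts were 6 of 9, 2 of 4, 7 of 17, 11 of 20, 5 of 11 and 3 of 11 in the same roles.

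Among the checkpoint genes those with a summit were Atrip, Rad17, Rad9a, Wee1 and Aurka. The peak of Wee1, the kinase that holds CDK1 inactive before mitosis, was the highest of the 5, with fold 18.3, 74 fragments and −log10 q 56.5 (chr7:110120549-110123733, summit 408 bp outside the gene). Rad17, the loader of the checkpoint clamp, had fold 10.7 and 43 fragments (chr13:100650197-100652583), with the summit 70 bp upstream of its start and beside the ends of Ak6 and Taf9. Rad9a, a subunit of that clamp, had fold 11.7 and 47 fragments (chr19:4200284-4202710), 8 bp outside the gene. Both values are near the median fold of the DMSO list, 10.99.

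Aurka, a mitotic kinase, had fold 10.7 and 43 fragments (chr2:172369676-172372017). Its summit lay at -295 bp from the listed start (upstream) but 21 bp inside the annotated gene, beside an end of Cstf1. The peak counted for Atrip, the partner of ATR, was weak and not at its start: fold 9.29 and 37 fragments (chr9:109058200-109060743), 530 bp beyond the far end of the gene and 14907 bp from the start, beside Trex1, which encodes a DNA exonuclease. The other clamp subunits, Rad1 and Hus1, had no summit in their window, nor did Atr, the activators Topbp1 and Etaa1, Chek1, its adaptor Clspn, the fork protection genes Timeless and Tipin, or the mitotic kinase gene Plk1.

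The genes of all 3 RPA subunits had a DMSO summit within 302 bp of their start. Rpa2 had the highest peak, with fold 15.6 and 63 fragments (chr4:132766614-132769280). Rpa1 followed with fold 12.2 and 49 fragments (chr11:75347224-75349526), at -282 bp from its start and beside Smyd4. Rpa3 had fold 9.51 and 46 fragments (chr6:8258251-8260319), 302 bp downstream of its start and beside Umad1. The exact Poisson intervals of the fragments, 48.4 to 80.6, 36.3 to 64.8 and 33.7 to 61.4, overlap, so the 3 genes are not ordered beyond counting error.

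The helicase genes held the highest peak of the whole set. Mcm7 had fold 22.0, 110 fragments (interval 90.4 to 132.6) and −log10 q 88.4, over 4071 bp (chr5:138169697-138173767), and ranked 83 of 6444 DMSO peaks by fold. Its summit lay between its 2 listed starts, at -307 bp from one (upstream) and 310 bp downstream of the other, beside an end of Ap4m1, a vesicle coat subunit gene. The ring genes Mcm2, Mcm4, Mcm5 and Mcm6 had lower peaks, with folds of 11.7, 9.53, 10.5 and 10.0 and with 47, 38, 42 and 40 fragments (chr6:88898097-88899941, chr16:15636005-15639053, chr8:75108594-75110723 and chr1:128357884-128360524). Their summits lay within 501 bp of a gene end, and that of Mcm4 was shared with Prkdc, which encodes the catalytic subunit of DNA-PK. Mcm3, the sixth ring gene, had its nearest DMSO summit 259 kb away.

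Of the other CMG genes, Gins2 had fold 16.8 and 82 fragments (chr8:120587261-120590959) and Gins1 fold 14.4 and 58 fragments (chr2:150908217-150910823), while Cdc45 had fold 10.99 and 44 fragments (chr16:18810348-18812952), beside Ufd1. The summit of Gins1 lay 636 bp inside the gene and that of Gins2 186 bp outside it. Among the genes that load the ring onto origins, Cdt1 stood highest, with fold 18.5, 75 fragments and −log10 q 57.9 (chr8:122566022-122569735), 574 bp upstream of its start.

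Orc1, a subunit of the origin recognition complex, had fold 11.4 and 48 fragments (chr4:108578298-108581009). Its summit was 3299 bp inside the annotated gene but at -450 bp from the listed start, beside Prpf38a, so the gene body and the start give it different places. Cdc6, an ATPase that works with ORC, had fold 10.0 and 40 fragments (chr11:98906867-98908504). Orc6 and Mcm10 had no summit in their window.

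In the polymerase group Pcna stood out from Pole, the catalytic subunit of polymerase epsilon. Pcna had fold 18.0, 73 fragments (interval 57.2 to 91.8) and −log10 q 55.2 (chr2:132251374-132255036), between its start and an end of Cds2. Pole had fold 9.29 and 37 fragments (interval 26.1 to 51.0; chr5:110285230-110286961), 363 bp inside the gene and beside Pxmp2. The intervals do not overlap. Rfc1, a clamp loader subunit, the polymerase genes Pola1 and Pold1, the primase gene Prim1 and the ligase gene Lig1 had no summit in their window.

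Fork remodelling and nuclease genes were spread over the same range. Zranb3, an annealing helicase that reverses forks, had fold 14.1 and 57 fragments (chr1:128101777-128104673), between its start and that of R3hdm1. Hltf, a ubiquitin ligase and translocase that also remodels forks, had fold 10.0 and 40 fragments (chr3:20056776-20058209) at -67 bp from a start, and Smarcal1 had no summit. Mus81, the nuclease that cuts stalled forks, had fold 17.5 and 71 fragments in the widest peak of the set, 6206 bp (chr19:5486357-5492562).

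Rnf4, a ubiquitin ligase that targets SUMO-modified proteins, had fold 10.99 and 44 fragments (chr5:34335392-34338067), 70 bp upstream of a start. Slx4, a scaffold for several nucleases, had the lowest fold of the 26, 8.10, with 39 fragments (chr16:4002488-4004576), and its summit was at -2467 bp from the listed start and 316 bp outside the annotated gene. Eme1, the partner of Mus81, and Fen1, the flap nuclease, had no summit in their window.

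Of the 26 DMSO peaks, 6 lay within the top 10% of the list by fold. By their medians, these 26 peaks were of ordinary height for the list. Their median fold was 11.2 (range 8.10 to 22.0), against 11.7 for the 3686 DMSO peaks with a summit near (within 1 kb of) an end of a coding gene, and 13 of 26 reached the median fold of the list. Their median width was 2606 bp against 2899.5 bp, and their median was 46.5 fragments against 49. The input coverage stood at its genome background in 21 of 26 (80.8%), against 81.3%. By fragments, 6 of the 26 had a Poisson interval above that of Slx4, while the intervals of the other 20, Slx4 included, overlapped it. Slx4 has the lowest fold, but Atrip and Pole with 37 fragments and Mcm4 with 38 have fewer than its 39.

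**Figure D2:**
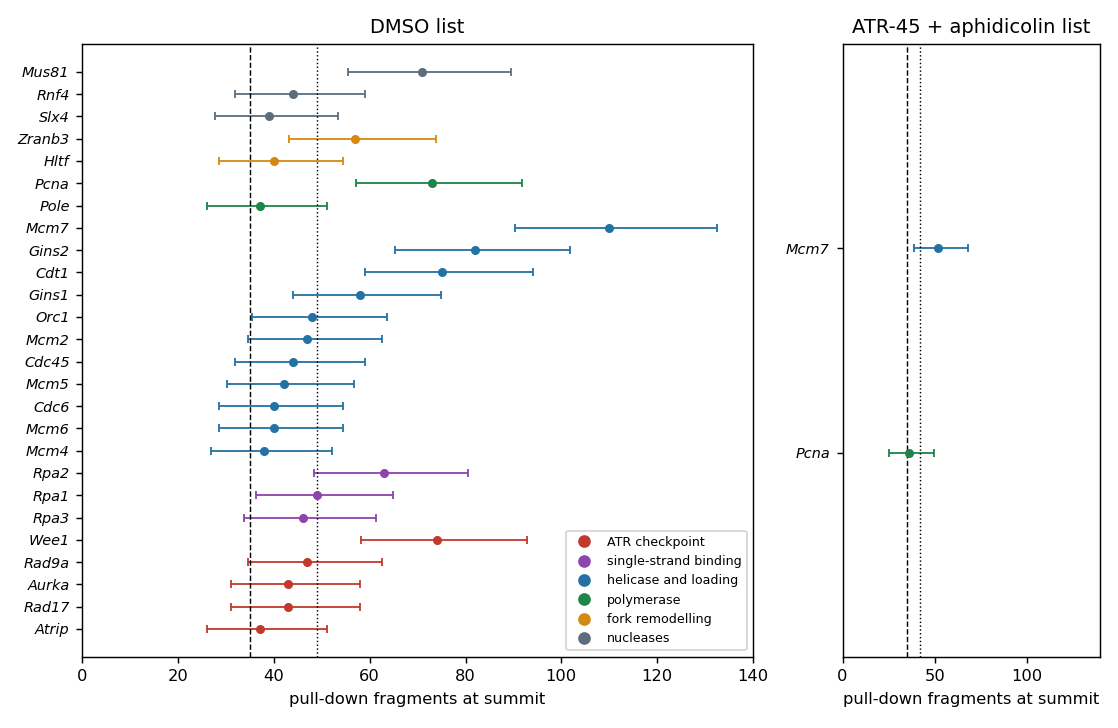
Pull-down fragments at the summit (x axis) of each ATR and fork gene with a peak (y axis), coloured by role, in the DMSO list (left) and the treated list (right); bars are exact 95% Poisson intervals, the dashed line is the lowest count of the list (35) and the dotted line its median (49 and 42). Mcm7 at 110 and Gins2 at 82 are the highest of 26 in DMSO, and most others lie close to the dotted line or left of it.

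The 2 treated peaks sat on the DMSO peaks of the same genes. How often treated peaks in general overlap a DMSO peak was not counted. The overlap is therefore not shown to be particular to Mcm7 and Pcna. The treated peak of Mcm7 had fold 4.94, −log10 q 5.40 and 52 fragments over 1812 bp (chr5:138170699-138172510), and its summit was 37 bp from the DMSO summit. The treated peak of Pcna had fold 5.16, −log10 q 3.72 and 36 fragments over 391 bp (chr2:132253063-132253453), with 13 bp between the summits. Pcna is thus 1 fragment above the lowest count of that list, and both folds are below its median of 5.19. At Mcm7 the input term, on the caller's scale, was also raised, to 3.83 against a background of 2.26 in the treated list and to 3.07 against 2.32 in DMSO. Its part in the peak was not tested. A further treated summit lay 9.73 kb from Pcna (fold 4.75, 41 fragments).

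By DMSO fold Mcm7 was the highest of the 26, but Pcna was not next to it. Cdt1 and Wee1 had higher folds than Pcna, and Gins2, Cdt1 and Wee1 had more fragments, with no treated peak. When the DMSO list was limited to its 491 peaks of highest −log10 q, a size chosen after seeing the data to match the treated list, 6 of the 47 genes had a summit (12.8%, against 2.31% of all protein-coding genes). They were Mcm7, Gins2, Cdt1, Wee1, Pcna and Mus81. Of the 72 other pathway genes 2 had a summit in this limited list (2.78%), near the share of all protein-coding genes.

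Of the 26 DMSO summits 14 lay outside the gene, where the counting rule itself sets the limit of 1 kb from an end. Of the 12 inside the body, 11 were also within 1 kb of an end, Orc1 being the exception. With that limit alone 25 of the 47 genes had a DMSO summit (53.2%), against 19.5% of all protein-coding genes. RefSeq lists a start with sequence for 40 of the 47 genes, not for Wee1, Rad9a, Tipin, Mcm4, Gins1, Gins2 and Pole. Of those 40, 18 had a DMSO summit within 1 kb of a listed start (45%, interval 29.3 to 61.5%), against 21.4% of the 17492 protein-coding genes with a listed start. The summit was upstream of the start in 12 of the 18 (66.7%), with a median position of -80 bp. At Aurka, Cdc6, Mcm7 and Orc1 such an upstream summit still lay inside the annotated gene, which reaches beyond the listed start used. How often this held for all protein-coding genes was not counted. For all protein-coding genes with such a summit 65.1% were upstream and the median was -136 bp, so the placement at these genes was close to that at genes in general.

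**Figure D3:**
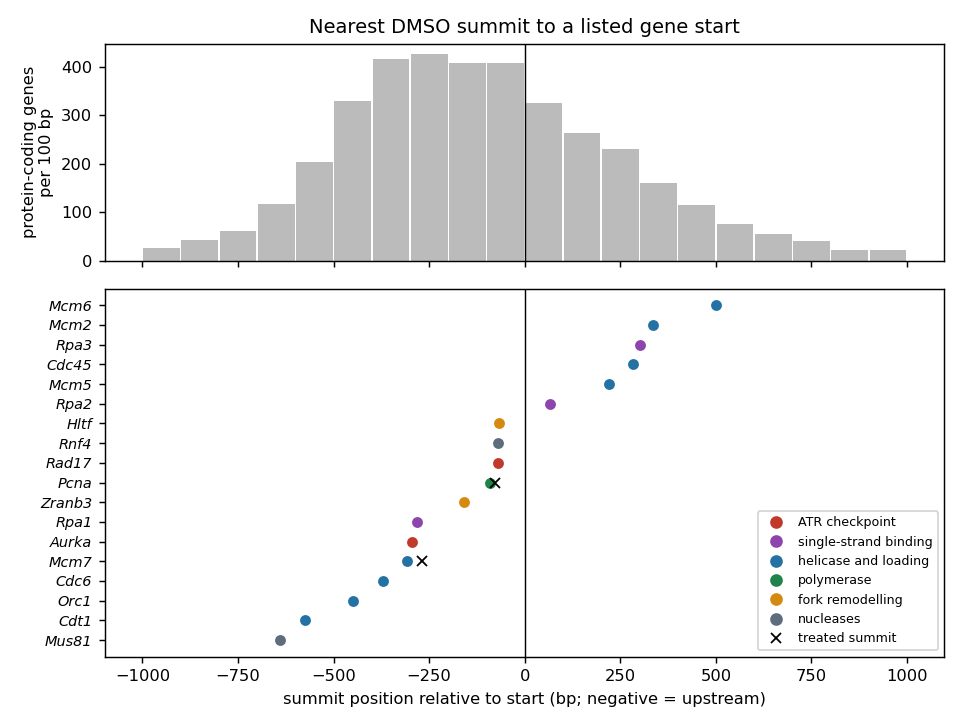
Position of the nearest DMSO summit relative to a listed gene start (x axis, bp, negative upstream), as protein-coding genes per 100 bp (top) and for the 18 ATR and fork genes with a summit within 1 kb of a start (bottom, dots coloured by role; crosses are treated summits). The 18 dots run from -641 bp (Mus81) to 501 bp (Mcm6) with a median of -80 bp, and the crosses of Mcm7 and Pcna lie beside their dots.

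Some of the peaks had the end of a neighbouring gene in reach as well. Of the 25 genes with a summit within 1 kb of their own end, 11 (44%) shared it with an end of another protein-coding gene. Counted in the same way, per gene, the share was 1463 of 4426 (33.1%) for protein-coding genes in general. At such a summit the peak cannot be assigned to 1 of the genes, and in 5 of the 11 (Mcm7, Aurka, Rpa3, Cdc45 and Pole) it lay inside the ATR or fork gene. The neighbours were Ap4m1 (at Mcm7), Cds2 (Pcna), Prkdc (Mcm4), Trex1 (Atrip), Cstf1 (Aurka), Smyd4 (Rpa1), Umad1 (Rpa3), Ufd1 (Cdc45), Pxmp2 (Pole) and R3hdm1 (Zranb3), with Ak6 and Taf9 at Rad17.

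The sequence upstream of the starts was compared next, because DMSO summits were more frequent at CpG-rich starts. A start was called CpG-rich where the 250 upstream bases had a GC content of at least 55% and a ratio of observed to expected CpG of at least 0.65. Genes with a CpG-rich start had a DMSO summit there in 42.6% of cases and the other genes in 9.1%. Of the 40 ATR and fork genes 25 had a CpG-rich start, and 12 of these had a summit (48%, interval 27.8 to 68.7%), which is near the 42.6% of all CpG-rich genes. Of the 15 others 6 had one (40%, interval 16.3 to 67.7%), against 9.1%: Rpa2, Mcm2, Mcm6, Cdc45, Zranb3 and Mus81. Rpa2, Mcm6 and Cdc45 missed the limit for GC content alone, with CpG ratios of 0.721, 0.797 and 1.08. Zranb3 did so too, with a ratio of 0.953 at the start nearest its summit. Mcm2 missed the limit for the ratio alone (0.4995, GC 56.8%), and Mus81 missed both (0.342 and 48.8%). The 9.1% was not split by the limit missed.

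Of the genes with a summit but no CpG-rich start, Cdc45 and Zranb3 face the start of a neighbouring gene. The GC content was 40.4% at Cdc45, 49.2% at the Zranb3 start nearest its summit and 40% at its other start. Among CpG-rich starts the share with a summit was 6 of 10 where a protein-coding neighbour started within 1 kb in the opposite direction (60%, against 55.4% of all such genes) and 6 of 15 elsewhere (40%, against 40.1%). Both shares are near those of all genes with such starts. CpG-rich starts without one were those of Atr, Chek1, Topbp1, Clspn, Plk1, Rad1, Orc6, Rfc1, Pola1, Pold1, Lig1, Eme1 and Atrip, whose peak is at its far end.

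**Figure D4:**
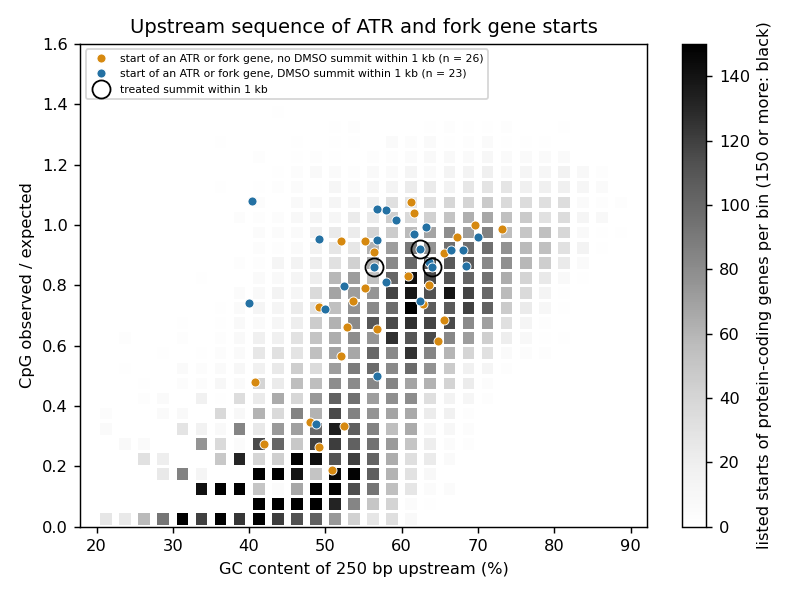
GC content (x axis, %) and ratio of observed to expected CpG (y axis) of the 250 bp upstream of each listed start, for all protein-coding genes (grey squares, darker for more starts) and for the 49 starts of 40 ATR and fork genes, with (blue, 23) or without (orange, 26) a DMSO summit within 1 kb; rings mark the starts of Mcm7 and Pcna, with a treated summit. Blue and orange dots overlap, with median GC of 58% and 55.8% and median CpG ratios of 0.918 and 0.743.

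Motifs were counted on both strands in the same 250 bases of the 49 listed starts. The CCAAT box (CCAAT) was in 29 (59.2%), against 35.4% of all 21263 listed starts of protein-coding genes and 32.8% of the CpG-rich ones. It was in 17 of the 23 starts with a DMSO summit (73.9%, against 42.4% of all starts with a summit) and in 12 of 26 without (46.2%, against 33.5% of all starts without). The Sp1 GC box (GGGCGG) was in 24 starts (49.0%), against 42.6% of all starts and 77.0% of CpG-rich ones. It was in 12 of the 23 with a summit (52.2%, against 72.6% of all such starts) and in 12 of 26 without (46.2%, against 34.8%). Starts of 1 gene share sequence, so these counts are not independent.

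The full E2F site (TTTCGCGC, TTTGGCGC, TTTCCCGC or TTTGCCGC) was in 7 starts (14.3%), against 2.35% of all starts and 4.55% of CpG-rich ones. Those of Cdc6, Mcm5, Mcm6, Mcm7 and Orc1 had a DMSO summit, and those of Topbp1 and Pola1 did not. The site was thus in 5 of the 23 starts with a summit (21.7%, against 4.69% of all such starts). It was in 2 of the 26 without (7.69%, against 1.74%). In general, too, it was more frequent at starts with a summit, and the difference at these few starts was not tested. In Mcm7 it is upstream of the second listed start, not of the one printed above. The short E2F site (GCGGGAA), which overlaps the full site TTTCCCGC in all but 1 base, was in 8 starts (16.3%, against 4.96% of all starts and 10.1% of CpG-rich ones). The NRF1 core (GCATGCGC) was in 3 (6.12%, against 2.93% and 5.50%), near the share of CpG-rich starts. The cell cycle homology region (TTTGAA) was in 9 (18.4%, against 14.5% and 5.87%), the TATA box (TATAAA) in 3 (6.12%, against 11.6% and 2.96%) and the cAMP response element (TGACGTCA) in 1, that of Mcm5 (2.04%, against 1.92% and 3.54%). Of the 49 starts 30 (61.2%) were CpG-rich, against 33.9% of all starts.

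The 21 genes without a DMSO summit in their window had none within 10 kb either. Their nearest DMSO summits ran from 15.5 kb (Topbp1) to 901 kb (Rad1), with a median of 107 kb. Over all 47 genes the median distance was 0.53 kb, against 66.9 kb for all protein-coding genes. As 26 of the 47 were counted within 1 kb, that median had to be below 1 kb and restates the count. Topbp1 was the nearest miss in both lists, with a DMSO summit at 15.5 kb (fold 22.2, 90 fragments) and a treated summit at 14.9 kb (fold 5.30, 37 fragments). Both lay within 1 kb of an end of the next gene, Cdv3, and they were 576 bp apart. Fen1 followed at 15.6 kb, beside Fads1.

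The other checkpoint genes were further away. Tipin had a DMSO summit at 28.1 kb (beside Map2k1), Timeless at 38.0 kb (Gls2) and Chek1 at 40.8 kb (Stt3a), with folds from 9.05 to 10.0. Plk1 was 92.7 kb, Clspn 127 kb, Hus1 288 kb, Atr 412 kb and Etaa1 780 kb from the nearest one. Atr and Rad1 both have CpG-rich starts that face a neighbouring gene. Among polymerase genes the distances ran from 28.7 kb (Prim1, beside Ptges3) to 490 kb (Pola1 on chromosome X).

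Treated summits were far from nearly all of these genes, with a median distance of 1570 kb, against 2126 kb for all protein-coding genes. After Mcm7, Pcna and Topbp1 the nearest were at 42.1 kb from Rad17 (fold 4.92) and 46962 bp from Hltf (fold 5.03), neither beside a coding gene end. Chek1 was the farthest, at 41755 kb.

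**Figure D5:**
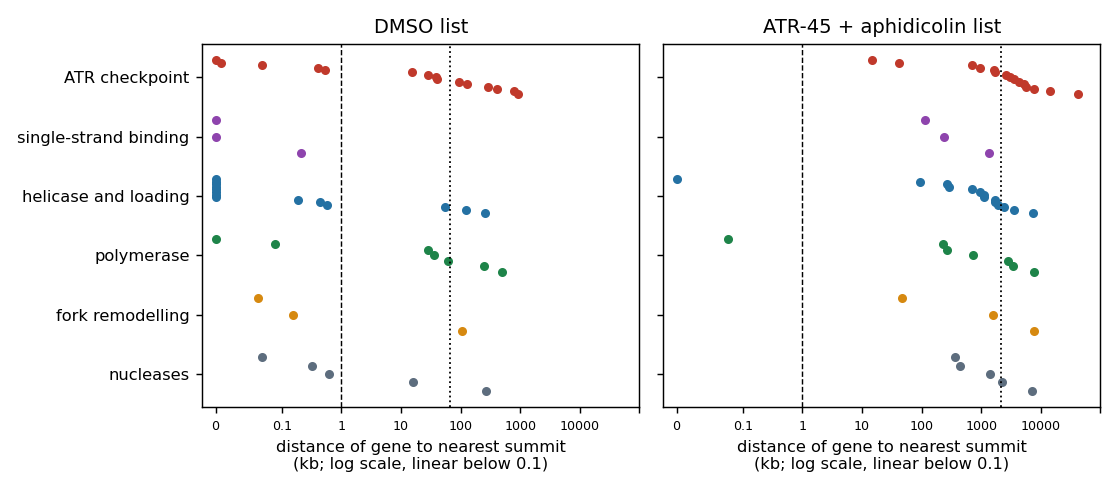
Distance of each of the 47 ATR and fork genes to the nearest peak summit (x axis, kb, log scale, linear below 0.1) by role (y axis), in the DMSO list (left) and the treated list (right); the dashed line is at 1 kb and the dotted line at the median of all protein-coding genes (66.9 and 2126 kb). In DMSO 26 dots lie left of the dashed line and the other 21 right of 10 kb, and in the treated list 2 dots lie left of it.

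Some of the genes had a further DMSO summit within 10 kb, mostly at a neighbour. These lay 3.58 kb from Rad9a (fold 15.6, beside Tbc1d10c and Ppp1ca), 3.67 kb from Mcm2 (fold 9.77, Tpra1), 3.54 and 8.74 kb from Mcm7 (folds 7.96 and 11.3, Cops6 and Zfp113), 3.90 kb from Cdt1 (fold 9.53, Aprt) and 3.60 kb from Orc1 (fold 14.7, Cc2d1b). Others lay 8.89 kb from Mus81 (fold 10.99, Efemp2), 9.70 kb from Rnf4 (fold 9.68) and 1.40 kb from Pcna (fold 8.09, 49 fragments), the last 2 with no end of a coding gene that near. At Rad9a and Orc1 the neighbour's peak was the higher one.

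The 72 other genes of these pathways were counted in the same way. A DMSO summit was found at 34 (47.2%, interval 35.3 to 59.3%) and a treated summit at 1 (1.39%, interval 0.0352 to 7.50%), against 23.8% and 1.16% of all protein-coding genes. In the checkpoint they were Rhno1 (a partner of the RAD9 clamp), Rad9b, Nek8 and the CDK1-activating phosphatase genes Cdc25a, Cdc25b and Cdc25c, with folds from 9.29 to 12.0. The single-strand binding genes Nabp1 and Nabp2 had folds of 11.2 and 12.7. Helicase and loading genes were Mcm8, Mcm9, Orc2, Orc4, Dbf4 (the activator of the origin kinase CDC7), Ticrr and Recql4, up to fold 15.6 at Orc4.

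In the polymerase group, which is broader than polymerases, those with a DMSO summit were Pola2, Pold3, Pold4, Pole3, Pole4, Rfc5, Chtf18 and Primpol. The translesion polymerase genes Polh, Rev1 and Rev3l had one too. Pola2 had a pair of summits, of which the higher (fold 18.5) was 4829 bp inside the gene. The remodelling helicase genes Blm, Wrn, Recql, Fbh1 and Brip1 had folds from 8.70 to 17.3, and the nuclease genes Slx1b, Gen1 and Ercc1 had folds from 10.0 to 13.4. The 1 treated summit was at Rfc4, a clamp loader subunit gene without a DMSO summit (fold 5.16, −log10 q 3.72, 36 fragments), 516 bp inside its end beside Eif4a2 and 13266 bp from its listed start.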

How the data were processed

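The labels' protocols describe biotin end-labelling of permeabilised cells, sonication, streptavidin pull-down and Illumina sequencing. The submitters' processing notes name the build mm10 and, with no role, MACS2 2.1.0, Picard 1.141, SAMtools 0.1.19, STAR 2.5.2a and bcl2fastq 2.17.1.14. How peaks were selected for deposit is not stated in the sources used. Each deposited list sets the pooled pull-downs of a condition against pooled inputs, per its peak names. The labels give 2 pull-downs and 1 input per condition, so which inputs were pooled is not clear. The authors deposited for each peak a fold enrichment, a ratio of pull-down to input at the summit, with −log10 p and −log10 q and a score that repeats −log10 p in rounded form and was not used.

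Read totals are not in the lists. Pull-down fragments and the input term at each summit were recovered by inverting the caller's formulas (fold from coverage and background, each with 1 added, and the Poisson upper tail for p). A solution was accepted where its coverage was within 0.02, on the caller's scale, of that of a whole number of fragments. All peaks were solved (100%), 2 DMSO and 16 treated peaks with several solutions, of which the nearest to whole was taken. The background is the most frequent input term of a list, and the pull-down background the same on the scale of pull-down fragments. The inversion and the counting were tested on simulated data.

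Genes, starts and upstream sequences came from RefSeq tables of GRCm38.p6. The table of genes gives no strand or exons, so strand and starts were known for genes with a listed start alone. The member written Claspn was read as Clspn. A gene was counted when a summit lay in its body or within 1 kb. Members, the 72 other pathway genes and the motifs were chosen with earlier results of these data known. Named genes are all members and other pathway genes with a summit in the window, members without one by distance, and neighbours with an end within 1 kb of a named summit. No tests were made, since the lists hold no value per sample. Intervals (95%) are exact binomial (Clopper-Pearson) for shares and exact Poisson for fragments, and cover counting error only. Fragments are not identified as single molecules. Alternatives changed the window, the rule of overlap, the peaks used and the strand searched. Python 3.11.15, NumPy 2.4.6, pandas 2.3.3, SciPy 1.17.1 and Matplotlib 3.10.9 were used.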

Additional observations from a re-analysis of the deposited data

How the results depend on the processing

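Of 52 alternative values 31 stayed within 1.5 times the reported one and 21 moved. The count of 26 genes, and of 26 summits, with DMSO peaks fell to 12 with gene bodies alone (13.2% of all protein-coding genes), to 13 with peaks at or above the median fold of the list (14.3%) and to 6 with the 491 DMSO peaks of highest −log10 q (2.31%), an alternative chosen after seeing the data, as was counting at listed starts alone. The count of 34 other pathway genes fell to 17, 16 and 2 in the same settings (23.6%, 22.2% and 2.78% of the 72). The count of 2 genes, and of 2 summits, with treated peaks fell to 1 with gene bodies alone (0.758% of all protein-coding genes), to 0 at or above the median fold (0.649%) and to 1 with −log10 q of at least 5 (0.539%), and that of the other pathway genes from 1 to 0 in both of the last settings. With peaks at or above the median fold the median distance to a summit rose to 93.28 kb in DMSO (all protein-coding genes 164 kb) and 2707.03 kb in the treated list (3852 kb), and with −log10 q of at least 5 to 3168.15 kb in the treated list (4538 kb). Searched on the given strand alone, the CCAAT box was in 14 of 49 starts (28.6%, against 19.9% of all). No paired analysis was possible because each list pools the pull-downs of its condition, and leaving out a replicate could not be run for the same reason. Every peak has at least 35 fragments, so weaker enrichment is not visible, and the lists differ in background and −log10 q. The treated counts rest on Mcm7 and Pcna, Pcna with 36 fragments.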
